A study of Mus musculus with 15 samples.

Results

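Genes known to be induced by type I interferon were followed across the tumours of a mouse study, gene by gene and tumour by tumour. The 40 genes were given by symbol, by a rule that uses no measured value, but they were chosen with earlier results of these data known. Of these, 38 were read from an expression table of 21851 genes, and Mx1 and Mx2 were not analysed here. All 38 passed the filter on low values and were among the 11311 genes tested. RNA from blocks of MC38 tumours was sequenced from stranded mRNA libraries, 5 tumours in each of 3 groups. MC38 is a mouse colon adenocarcinoma line, and the genotype of every sample is labelled wild type. By intravenous injection the groups received vehicle, the antibody anti-PD-1, which blocks an inhibitory receptor of T cells, or anti-PD-1 with BG136 (the combination). BG136 is a soluble β-1,3/1,6-glucan in purified form. The strain, age, doses and times are not given in the sources used here, and no group given BG136 alone was analysed here.

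Type I interferons signal through the receptor chains IFNAR1 and IFNAR2 and the kinases JAK1 and TYK2. These phosphorylate STAT2, which acts with IRF9 in a complex that binds the interferon-stimulated response element (ISRE) in the promoters of antiviral genes. In tumours such signalling is known to arise from nucleic acids sensed in malignant and myeloid cells, and many of the same genes also respond to interferon gamma.

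The response element was searched in the promoters because it is the sequence feature that these genes are known for. A share above that of all genes could therefore be foreseen. Windows of 300 bases, from 250 before to 50 after the start of transcription, were taken from RefSeq (build GRCm38.p6) and were found for 30 of the 38 genes. The ISRE core was taken as GAAA, any 2 bases and GAAA again, and was searched on both strands, with overlapping matches allowed. It was present in 12 of the 30 genes (40%), against 3.99% of the 27025 genes with a window in the table. The core of the gamma-activated site, TTCNNNGAA, whose last bases may also begin an ISRE core, was present in 6 of the 30 (20%), against 9.55%. The whole windows are shown for Isg15 (chr4:156200769-156201068, minus strand), which had the most matches, and for Ifit1 (chr19:34640639-34640938, plus strand), which had the smallest p in the comparison of the combination with vehicle. Each sequence is written 5′ to 3′ on the gene's strand, and capitals mark the ISRE core, which reads TTTC, any 2 bases and TTTC where it lies on the opposite strand.
Isg15: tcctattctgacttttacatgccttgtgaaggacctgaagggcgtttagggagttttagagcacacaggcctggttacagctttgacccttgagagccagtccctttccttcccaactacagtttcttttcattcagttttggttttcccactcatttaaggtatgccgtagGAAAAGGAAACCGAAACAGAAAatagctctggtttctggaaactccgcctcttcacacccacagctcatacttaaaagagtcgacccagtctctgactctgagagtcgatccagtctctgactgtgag
Ifit1: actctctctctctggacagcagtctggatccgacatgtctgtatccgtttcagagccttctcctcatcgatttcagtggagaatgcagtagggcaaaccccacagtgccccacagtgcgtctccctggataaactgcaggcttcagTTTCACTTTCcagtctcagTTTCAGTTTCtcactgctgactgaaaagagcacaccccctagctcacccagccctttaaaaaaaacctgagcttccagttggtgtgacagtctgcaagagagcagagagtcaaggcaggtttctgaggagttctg

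Isg15 held 3 overlapping matches that began at positions -78, -72 and -66, counted from the start of transcription as 0, and Ifit1 held 2 separate ones at -104 and -85. Stretches of 30 bases around the first match are shown for the 6 other genes that were lower with the combination and held a match, because they show the element in the genes that the comparison turns on. These were Rsad2 (chr12:26456553-26456582, minus strand), Eif2ak2 (chr17:78882535-78882564, minus), Ifih1 (chr2:62646206-62646235, minus), Oas1a (chr5:120907526-120907555, minus), Ifit3 (chr19:34583363-34583392, plus) and Ifit3b (chr19:34607759-34607788, plus).
Rsad2: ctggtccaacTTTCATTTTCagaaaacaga
Eif2ak2: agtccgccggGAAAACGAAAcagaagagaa
Ifih1: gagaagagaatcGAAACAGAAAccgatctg
Oas1a: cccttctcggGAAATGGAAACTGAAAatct
Ifit3: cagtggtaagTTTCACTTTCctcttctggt
Ifit3b: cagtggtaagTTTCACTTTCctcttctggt

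The Ifit3 and Ifit3b stretches were identical in 30 of 30 bases. Among the genes that were lower with the combination, 8 of 16 with a window held the core (50%). Among those that did not pass, 4 of 13 did (30.8%): Oas3, Trim30a, Bst2 and Stat2. The 1 gene that was higher, Epsti1, held none. A match describes the letters of this window and was not tested as a binding site.

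All FPKM values (sequenced fragments per kilobase of a gene's transcript scaled by the fragments of its library) were the authors' own. They summed to between 377509 and 424899 per library. Whole read counts were not analysed here, so no counting interval is given. From the spacing of low values, depth relative to vehicle tumour 1 ranged from 0.831 to 1.07 in the 12 libraries in which it was clear. The lowest were anti-PD-1 tumours 1 (0.831) and 2 (0.912). Depth was unclear in combination tumours 4 and 5, of which tumour 4 also had the highest FPKM sum. Markers of T cells summed to between 13.5 and 29.6 FPKM in the vehicle tumours, 31.1 and 46.1 with anti-PD-1, and 42.9 and 154 with the combination. Those of macrophages and monocytes summed to between 1046 and 1319, 1461 and 1747, and 1466 and 3572. Most of these macrophage sums was C1qa and C1qb, at 498 and 471 FPKM on average with vehicle. In the test given below, 5 of the 8 (62.5%, against 16.6% of all tested genes) were higher with the combination. With anti-PD-1, 0 were (background 2.21%). The 7 epithelial markers were low for a line labelled colon adenocarcinoma, with sums of 1.02 to 27.8 FPKM, and Krt20 and Vil1 were at or below 0.207 in every tumour. In bulk tumours, fewer cells of a type and less RNA per cell cannot be told apart, which holds for every result that follows. Nothing in the labels says whether the 5 tumours of a group came from separate mice, so the tests measure the spread between these samples.

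With the combination, 19 of the 38 genes fell against vehicle and 1 rose, while 18 did not pass the test (limma on log2(FPKM + 1), two-sided, Benjamini-Hochberg adjusted over all genes tested, threshold 0.05). The background was wide, since 40.5% of all tested genes passed in this comparison, 23.9% as lower and 16.6% as higher. The members that passed as lower made up 50% and those higher 2.63%. The median log2 change of the 38 genes was -0.38, against -0.05 over all tested genes. Of the 38, 35 lay below 0, as did 6734 of all 11311 tested genes. In 17 genes every combination tumour lay below every vehicle tumour (44.7%, against 14.7% of all tested genes), and in 0 did every one lie above (background 9.38%). The genes that fell the most were those encoding cytoplasmic antiviral proteins, Ifit1, Ifit3, Ifit3b, Oas2, Rsad2, Ifi44 and Isg15, at log2 changes of -0.94 to -0.70. The genes of the signal-carrying factors Stat2, Irf9 and Irf7 and of the PARP9, DTX3L and PARP14 group did not pass.

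**Figure D1:**
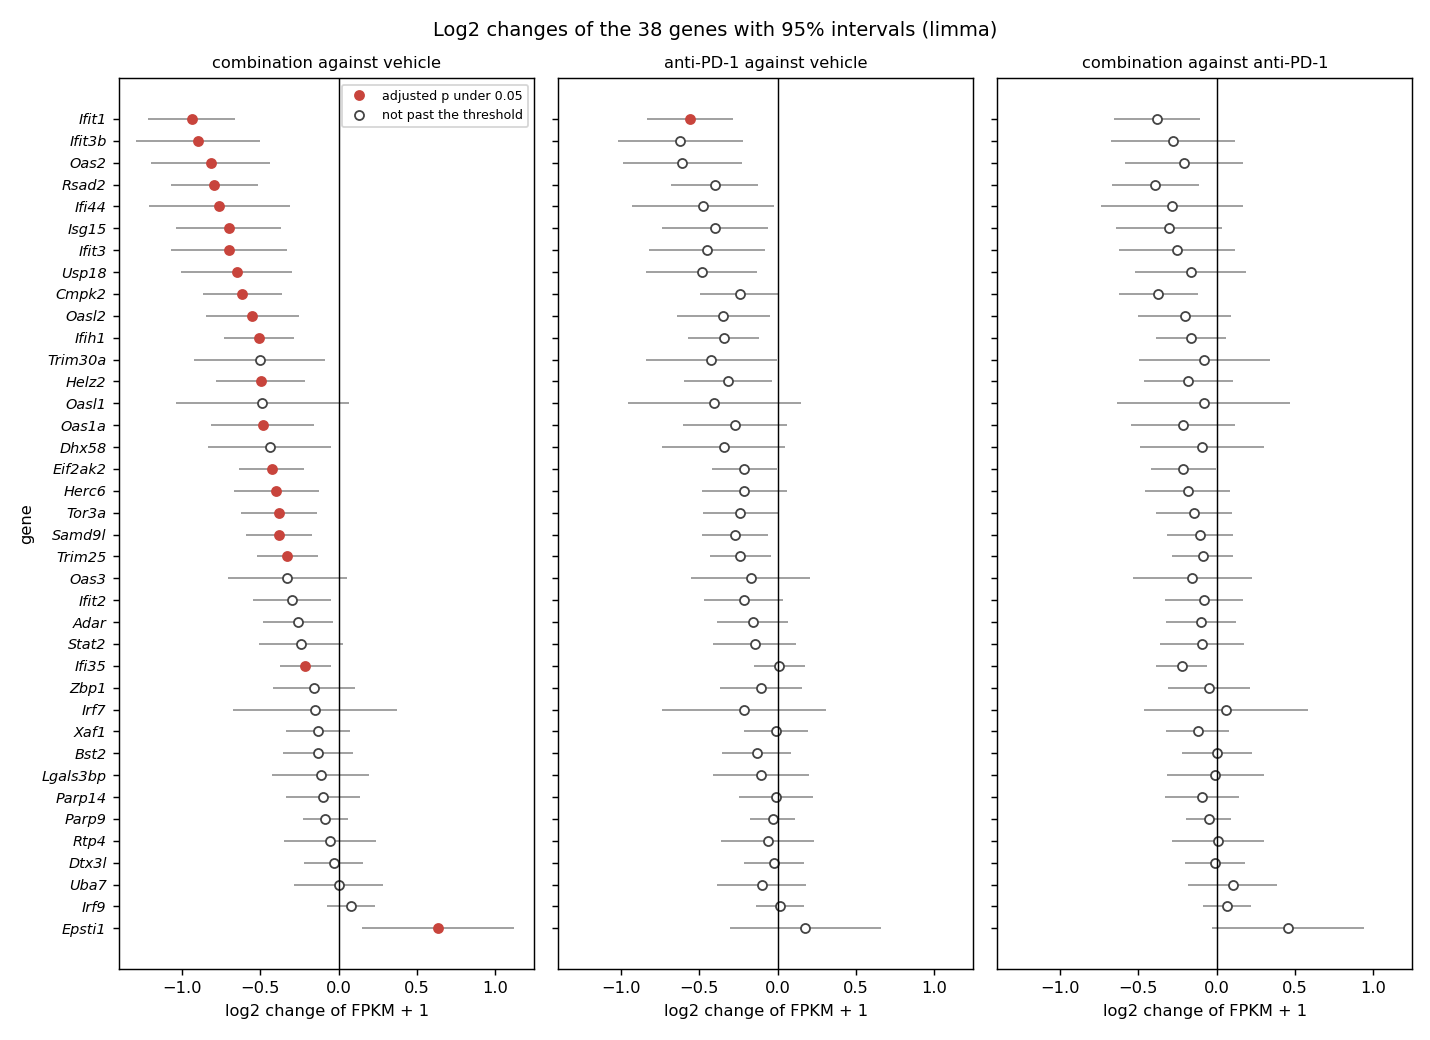
Log2 change of FPKM + 1 (horizontal axis) for each of the 38 genes (vertical axis) in the 3 comparisons, with 95% intervals from limma; filled points passed the adjusted threshold of 0.05. In the first panel 19 filled points lie left of 0 and 1, Epsti1, lies right of it, the second panel has 1 filled point, Ifit1, and the third has 0.

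The signalling genes come first in the pathway. Stat2, a transcription factor activated at the type I interferon receptor, measured 36.6, 33.4, 37.3, 34.2 and 39.0 FPKM in vehicle tumours 1 to 5 and 33.7, 23.6, 33.4, 29.0 and 33.3 in combination tumours 1 to 5. Replicates are given in this order throughout. The ranges of the 2 groups overlapped, and combination tumour 2 was the lowest of all 15. Irf9, the DNA-binding subunit of the same complex, averaged 22.2 ± 1.29 FPKM (SD, n = 5) with vehicle, 22.4 ± 1.10 with anti-PD-1 and 23.6 ± 3.00 with the combination. Irf7, which drives the amplifying wave of interferon alpha genes, was the most scattered of the 3. It measured 84.5, 43.0, 105, 65.7 and 136 FPKM in the combination tumours, against 74.5 to 104 with vehicle and 57.4 to 98.4 with anti-PD-1. Both the lowest and the highest Irf7 values of the study were thus in the combination group.

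Of the 5 genes for sensing and editing RNA, 2 fell with the combination, and the median log2 change of the 5 was -0.43. Ifih1 encodes MDA5, the sensor of long double-stranded RNA. It measured 17.7, 18.1, 18.4, 15.9 and 18.6 FPKM with vehicle and 13.8, 9.87, 13.4, 10.5 and 13.7 with the combination. The groups did not overlap, and the log2 change was -0.51 ± 0.11 (SE, limma adjusted p = 0.00213). Eif2ak2, the kinase PKR that halts translation on double-stranded RNA, averaged 22.3 ± 1.46 FPKM (SD, n = 5) with vehicle and 16.5 ± 2.55 with the combination. Its combination values of 19.8, 15.4, 17.3, 12.9 and 17.1 FPKM all lay below the vehicle range of 20.1 to 23.9. Its log2 change was -0.43 ± 0.10 (SE, limma adjusted p = 0.00367).

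The other 3 genes of this group did not pass. Dhx58, the MDA5 cofactor LGP2, measured 20.1, 13.3, 24.8, 13.7 and 23.6 FPKM with the combination, against 22.1 to 28.6 with vehicle. Combination tumours 2 and 4 lay well below the vehicle range, and tumours 3 and 5 lay inside it. Adar, the RNA editing enzyme, measured 17.4, 13.3, 16.6, 11.8 and 18.8 FPKM, against 17.0 to 19.8, and was likewise lowest in tumours 2 and 4. Zbp1, a sensor of Z-form nucleic acid that can start necroptosis, averaged 101 ± 6.69 FPKM (SD, n = 5) with vehicle and 91.1 ± 10.2 with the combination.

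The oligoadenylate synthetases make short oligoadenylates that switch on RNase L, an enzyme that cuts RNA, and the related mouse OASL1 lacks that activity. Of these 5 genes, 3 fell with the combination, at a median log2 change of -0.49 over the 5. Oas2 measured 23.3, 22.4, 25.5, 21.7 and 27.3 FPKM with vehicle, and 17.1, 8.69, 14.9, 11.2 and 15.9 with the combination. No combination tumour reached the vehicle range, and the log2 change was -0.82 ± 0.18 (SE, limma adjusted p = 0.00284). Oasl2 measured 62.6, 43.9, 62.6, 45.8 and 66.0 FPKM with the combination, below the vehicle range of 73.7 to 91.7, with a log2 change of -0.55 ± 0.14 (SE, adjusted p = 0.0066). Oas1a averaged 39.4 ± 2.56 FPKM with vehicle and 28.5 ± 6.91 with the combination, and its groups overlapped through combination tumour 5, at 37.5 FPKM. The Oas1a change of -0.49 ± 0.16 (SE, adjusted p = 0.0226) lost its call under 5 of 28 other settings, among them leaving out vehicle tumour 3 or combination tumour 4, with adjusted p up to 0.153. In addition, 56.9% of the 50-base stretches of Oas1a transcripts are shared with Oas1g and other genes, so its FPKM is uncertain.

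Oasl1, known in mice to restrain translation of Irf7, measured 18.4, 8.82, 23.6, 8.76 and 22.2 FPKM with the combination. Tumours 2 and 4 were under the vehicle range of 18.1 to 25.3, and the other 3 were inside it. This was the widest spread among the 38 genes in that group, with an SD of 0.66 on the log2 scale, and the gene did not pass. Oas3, at 26.8, 13.8, 25.6, 18.4 and 23.8 FPKM against 23.8 to 30.7 with vehicle, did not pass either.

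IFIT proteins bind RNA that lacks the host's cap modifications and block its translation. Of the 4 genes, 3 fell with the combination, at a median log2 change of -0.80 over the 4. Ifit1 measured 57.3, 45.4, 50.5, 43.5 and 55.9 FPKM with vehicle, 26.4, 27.1, 43.9, 38.4 and 36.4 with anti-PD-1, and 27.8, 22.6, 24.2, 25.6 and 28.9 with the combination. The 5 combination tumours lay close together and all below the vehicle range, while anti-PD-1 tumours 1 and 2 lay inside the combination range, tumours 4 and 5 between the groups, and tumour 3 inside the vehicle range. Its log2 change with the combination was -0.94 ± 0.13 (SE, limma adjusted p = 1.9e-04), the largest of the 38. Ifit3b measured 19.2, 13.5, 20.8, 14.6 and 19.4 FPKM with vehicle and 9.45, 6.86, 8.03, 8.37 and 11.9 with the combination, without overlap (log2 change -0.90 ± 0.19, SE, adjusted p = 0.00213). Ifit3 averaged 51.7 ± 7.57 FPKM (SD, n = 5) with vehicle and 31.7 ± 6.16 with the combination (log2 change -0.70 ± 0.17, SE, adjusted p = 0.00597). Ifit3 shares 51.2% and Ifit3b 45.0% of their 50-base stretches with other genes, mostly with each other, so how the authors' counting split their reads is uncertain. Ifit2 did not pass, at 25.2, 20.1, 27.1, 23.5 and 28.5 FPKM with the combination against 28.1 to 34.7 with vehicle. The windows of these 4 genes all lie on chromosome 19, and only those of Ifit1, Ifit3 and Ifit3b held the ISRE core.

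**Figure D2:**
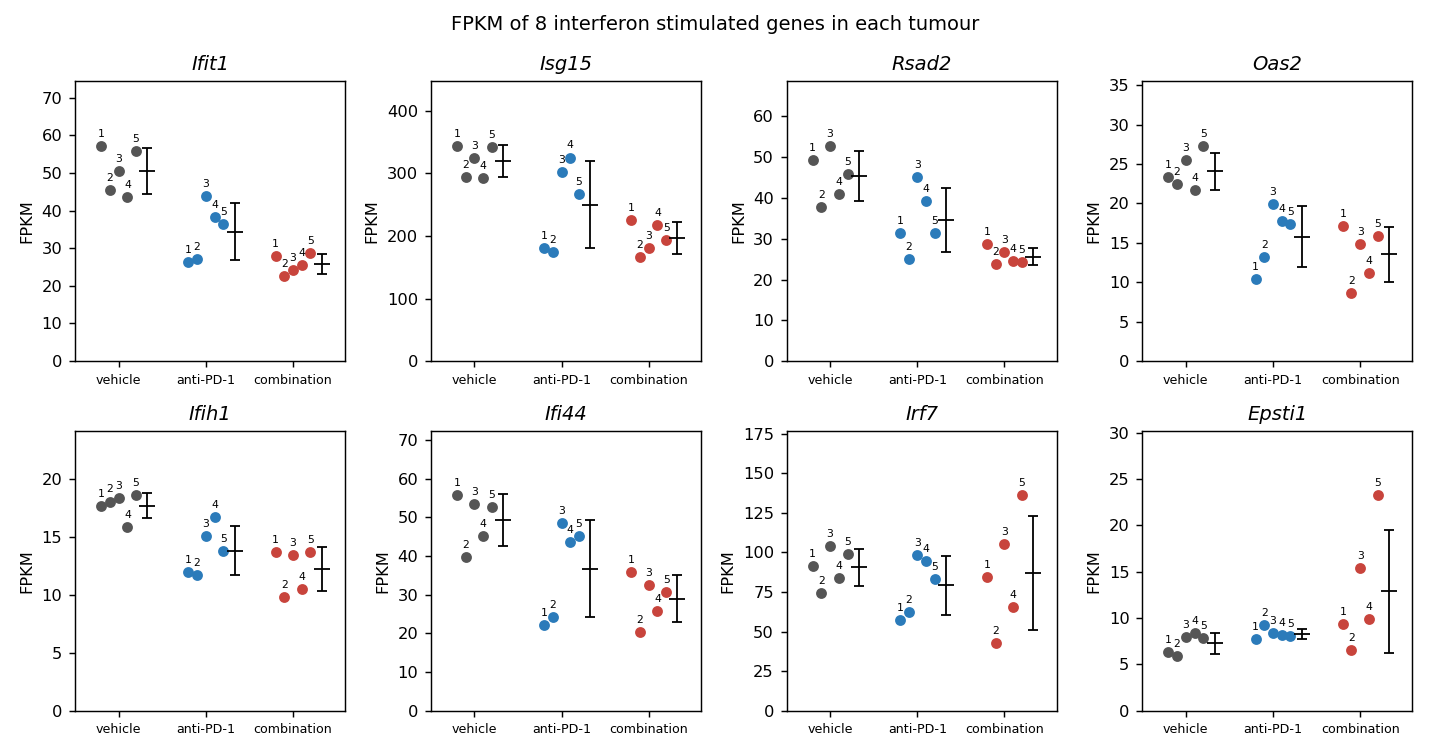
FPKM (vertical axis, from 0) of 8 of the genes in every tumour of the 3 groups; each point is 1 tumour with its replicate number, and the bar beside each group is the mean ± SD (n = 5). In Ifit1, Rsad2, Oas2, Isg15, Ifih1 and Ifi44 the combination tumours lie below the vehicle tumours without overlap, whereas Irf7 and Epsti1 scatter widely with the combination.

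ISG15 is a ubiquitin-like protein that is joined to other proteins by its activating enzyme UBA7 and, in mice, the ligase HERC6, and is removed by USP18, which also dampens signalling at the receptor. Of these 4 genes, 3 fell with the combination, at a median log2 change of -0.52. Isg15 measured 344, 294, 325, 292 and 342 FPKM with vehicle, 180.2, 174, 302, 325 and 267 with anti-PD-1, and 226, 166, 181, 217 and 194 with the combination. Every combination tumour lay below the vehicle range, and the anti-PD-1 tumours split into tumours 1 and 2 below it and tumours 3 and 4 inside it, with tumour 5 under it. The log2 change with the combination was -0.70 ± 0.16 (SE, limma adjusted p = 0.00348). Usp18 averaged 36.9 ± 4.01 FPKM (SD, n = 5) with vehicle and 23.3 ± 4.45 with the combination (log2 change -0.65 ± 0.17, SE, adjusted p = 0.0071). Herc6 averaged 23.4 ± 2.23 and 17.6 ± 2.26 FPKM (log2 change -0.40 ± 0.13, SE, adjusted p = 0.0221), a call lost under 4 of 28 other settings, among them leaving out vehicle tumour 3, with adjusted p up to 0.0786. Uba7 did not pass, and its combination values of 13.6, 9.88, 16.7, 13.5 and 20.1 FPKM ran from below to above the vehicle range of 13.2 to 15.8.

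Among the other antiviral effectors 3 of 5 fell, at a median log2 change of -0.38. Rsad2, which encodes viperin, an enzyme that makes a chain-terminating nucleotide, measured 49.3, 37.7, 52.8, 41.0 and 45.8 FPKM with vehicle. With the combination it measured 28.8, 23.7, 26.7, 24.6 and 24.2, a tight group wholly below the vehicle range. Its log2 change was -0.79 ± 0.13 (SE, limma adjusted p = 5.15e-04). Cmpk2, the mitochondrial nucleotide kinase encoded beside it, measured 26.3, 23.1, 20.4, 22.8 and 22.6 FPKM with the combination, below the vehicle range of 32.1 to 40.8 (log2 change -0.62 ± 0.12, SE, adjusted p = 0.00136). In Cmpk2, anti-PD-1 tumours 3, 4 and 5 were inside the vehicle range, at 32.5 to 37.5 FPKM, and above all 5 combination tumours. Samd9l, a restriction factor for poxviruses, averaged 21.9 ± 1.46 FPKM with vehicle and 16.7 ± 2.39 with the combination (log2 change -0.38 ± 0.10, SE, adjusted p = 0.00777). Bst2, the virion-tethering membrane protein, had the highest level of the 38 genes per length, at 625 ± 49.5 FPKM with vehicle and 571 ± 64.5 with the combination, and did not pass. Rtp4 averaged 43.5 ± 2.35 and 42.3 ± 7.50 FPKM and did not pass, and 11.6% of its 50-base stretches are shared with another gene.

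Trim25, the ubiquitin ligase known for activating RIG-I, measured 41.6, 33.1, 41.6, 30.3 and 39.7 FPKM with the combination, below the vehicle range of 43.4 to 49.7. Its log2 change was -0.33 ± 0.09 (SE, limma adjusted p = 0.0109). Trim30a measured 25.5, 16.5, 29.8, 17.2 and 35.9 FPKM against 29.9 to 37.5, and did not pass; combination tumour 5 was inside the vehicle range. The complex of PARP9, a member of the ADP-ribosyltransferase family, with the ubiquitin ligase DTX3L, and PARP14, another ADP-ribosyltransferase, is induced by both kinds of interferon. None of their 3 genes passed (0 of 3), and the median log2 change was -0.08. Parp9 averaged 36.1 ± 2.49 FPKM with vehicle and 34.0 ± 1.76 with the combination, Parp14 24.8 ± 1.74 and 23.3 ± 3.56, and Dtx3l 32.3 ± 1.76 and 31.7 ± 3.96 (SD, n = 5 each).

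Of the 7 remaining genes, 4 fell and 1 rose. Ifi44 measured 55.7, 39.8, 53.4, 45.2 and 52.6 FPKM with vehicle and 35.8, 20.3, 32.4, 25.9 and 30.6 with the combination, without overlap (log2 change -0.76 ± 0.21, SE, limma adjusted p = 0.0112). Helz2, a helicase and nuclear receptor coactivator, averaged 19.1 ± 1.81 and 13.4 ± 3.02 FPKM (log2 change -0.50 ± 0.13, SE, adjusted p = 0.00883). Tor3a, a torsin-family ATPase, averaged 42.7 ± 3.49 and 32.6 ± 3.56 FPKM (log2 change -0.38 ± 0.11, SE, adjusted p = 0.0154). Ifi35 averaged 57.0 ± 2.92 and 49.3 ± 5.95 FPKM, and its groups overlapped through combination tumour 4, at 56.3. Its log2 change of -0.21 ± 0.08 (SE, adjusted p = 0.0377) lost its call under 12 of 28 other settings, among them leaving out vehicle tumour 1, 2, 3 or 4 or combination tumour 2 or 3, with adjusted p up to 0.143. Xaf1, an apoptosis cofactor, and Lgals3bp, a secreted galectin-binding glycoprotein, did not pass.

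Epsti1, a gene of epithelial-stromal contact that is also expressed in macrophages, was the 1 gene that rose. It measured 6.35, 5.87, 8.01, 8.37 and 7.82 FPKM with vehicle and 9.37, 6.51, 15.4, 9.94 and 23.2 with the combination. Combination tumours 3 and 5 stood far above the rest, and tumour 2 was inside the vehicle range. The log2 change of 0.63 ± 0.23 (SE, limma adjusted p = 0.0377) was not called under 11 of 28 other settings, among them leaving out vehicle tumour 1, 2, 3 or 5 or combination tumour 3 or 5, and was 0.21 without combination tumours 3 and 5. Those 2 tumours also had the highest summed macrophage markers, at 2895 and 3572 FPKM, and the highest summed T cell markers, at 80.8 and 154. The part of these cells in the Epsti1 values was not tested.

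With anti-PD-1 alone, 1 of the 38 genes fell against vehicle and 0 rose, at a background of 5.55% of all genes called, 3.34% lower and 2.21% higher. The median log2 change of the 38 genes was -0.23, against 0.01 over all tested genes. By limma, 15 of the 38 genes had an unadjusted p under 0.05, as did 2599 of all 11311 tested. The gene that fell was Ifit1, at 34.4 ± 7.55 FPKM against 50.5 ± 6.10 with vehicle (SD, n = 5), a change of -0.56 ± 0.13 on the log2 scale (SE, adjusted p = 0.0229 by limma). This call was lost under 7 of 28 other settings, among them leaving out anti-PD-1 tumour 1 or 2 or vehicle tumour 1, 3 or 5, with adjusted p up to 0.143. In Oas2 alone did every anti-PD-1 tumour, at 10.4, 13.3, 20.0, 17.8 and 17.4 FPKM, lie below every vehicle tumour, which held for 6.63% of all genes, and in 0 genes did every one lie above (7.09% of all genes). The Oas2 change of -0.61 ± 0.18 (SE) did not pass (adjusted p = 0.0598), nor did Ifit3b at -0.62 ± 0.19 (0.0655), Ifih1 at -0.34 ± 0.11 (0.0692), Rsad2 at -0.40 ± 0.13 (0.0855) or Usp18 at -0.48 ± 0.17 (0.10). Epsti1, which had the highest change, stood at 0.18 ± 0.23 (0.689).

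When the combination was set against anti-PD-1 alone, 0 of the 38 genes passed in either direction by limma. An unadjusted p under 0.05 was found in 5 of the 38, and in 3187 of all 11311 tested genes. The background was 0.0619% of all genes called, all of them lower. The median log2 change of the 38 genes was -0.11, against -0.05 over all genes, and in 0 genes did the groups fail to overlap (background 3.84% lower and 0.663% higher). The 3 genes with the smallest p were Cmpk2 at -0.37 ± 0.12 (SE, adjusted p = 0.0953, 95% interval -0.63 to -0.12), Rsad2 at -0.39 ± 0.13 (0.0995, -0.67 to -0.11) and Ifit1 at -0.38 ± 0.13 (0.102, -0.65 to -0.10). Ifi35 stood at -0.22 ± 0.08 (0.103), Eif2ak2 at -0.21 ± 0.10 (0.166) and Epsti1 at 0.46 ± 0.23 (0.198). Bst2, Parp9, Dtx3l, Irf9 and Trim25 gave 95% intervals that spanned 0 and reached no further than 0.30 to either side, and that of Rtp4 reached 0.302. A difference in these genes of the size of the Ifit1 change against vehicle lay outside those intervals. It lay outside the intervals of the other members too, apart from that of Epsti1. Any 2 of the 3 comparisons share 1 group of tumours, so their values are not independent of each other.

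The spread within the treated groups was wide and was shared by most of the 38 genes. The median SD of a gene on the log2 scale was 0.12 with vehicle, 0.29 with anti-PD-1 and 0.22 with the combination, against 0.09, 0.10 and 0.16 over all tested genes. Each tumour was summarised by its mean log2 difference from the vehicle mean over the 38 genes. The vehicle tumours lay at 0.05, -0.12, 0.12, -0.09 and 0.05. The anti-PD-1 tumours lay at -0.53, -0.48, -0.06, -0.0038 and -0.13, and the combination tumours at -0.24, -0.68, -0.23, -0.53 and -0.14. The 5 combination tumours were thus all below the vehicle tumours, although tumour 5 was close to vehicle tumour 2. Anti-PD-1 tumours 1 and 2 were close to combination tumour 4 and above combination tumour 2, while tumours 3 and 4 were among the vehicle tumours.

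The same tumours were low in most of the 38 genes. In anti-PD-1 tumours 1 and 2, 35 and 36 of the 38 genes were below all 5 vehicle tumours, against 8, 2 and 17 in tumours 3, 4 and 5. In the combination the number was 22, 37, 22, 31 and 22. Combination tumour 2 was among the lowest 2 of its group in 36 genes and tumour 4 in 26. These counts by tumour were not made over all tested genes, so they have no background here. Over all tested genes, the median log2 difference from the vehicle mean was -0.00099 to 0.013 in the anti-PD-1 tumours. It was -0.11 to -0.02 in the combination tumours. Without anti-PD-1 tumours 1 and 2 the median change of the genes with anti-PD-1 was -0.05, against 0.01 over all genes. In that fit 0 of the 38 passed, and 30 of all 11221 genes tested did. Without combination tumours 2 and 4 the median change with the combination against vehicle was -0.18, and -0.07 over all genes. In that fit 14 of the 38 genes were lower and 2 higher, while 5478 of all 11240 genes passed, 2291 of them higher. Ifit1, Ifit3, Ifit3b, Isg15, Rsad2 and Oas2 were among the 14, while Oas1a, Ifi44, Herc6, Trim25 and Tor3a were no longer called. Against anti-PD-1 alone the median of the 38 genes then changed sign, to 0.03, against -0.07 over all genes. Both choices of tumours were made after their values were seen.

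**Figure D3:**
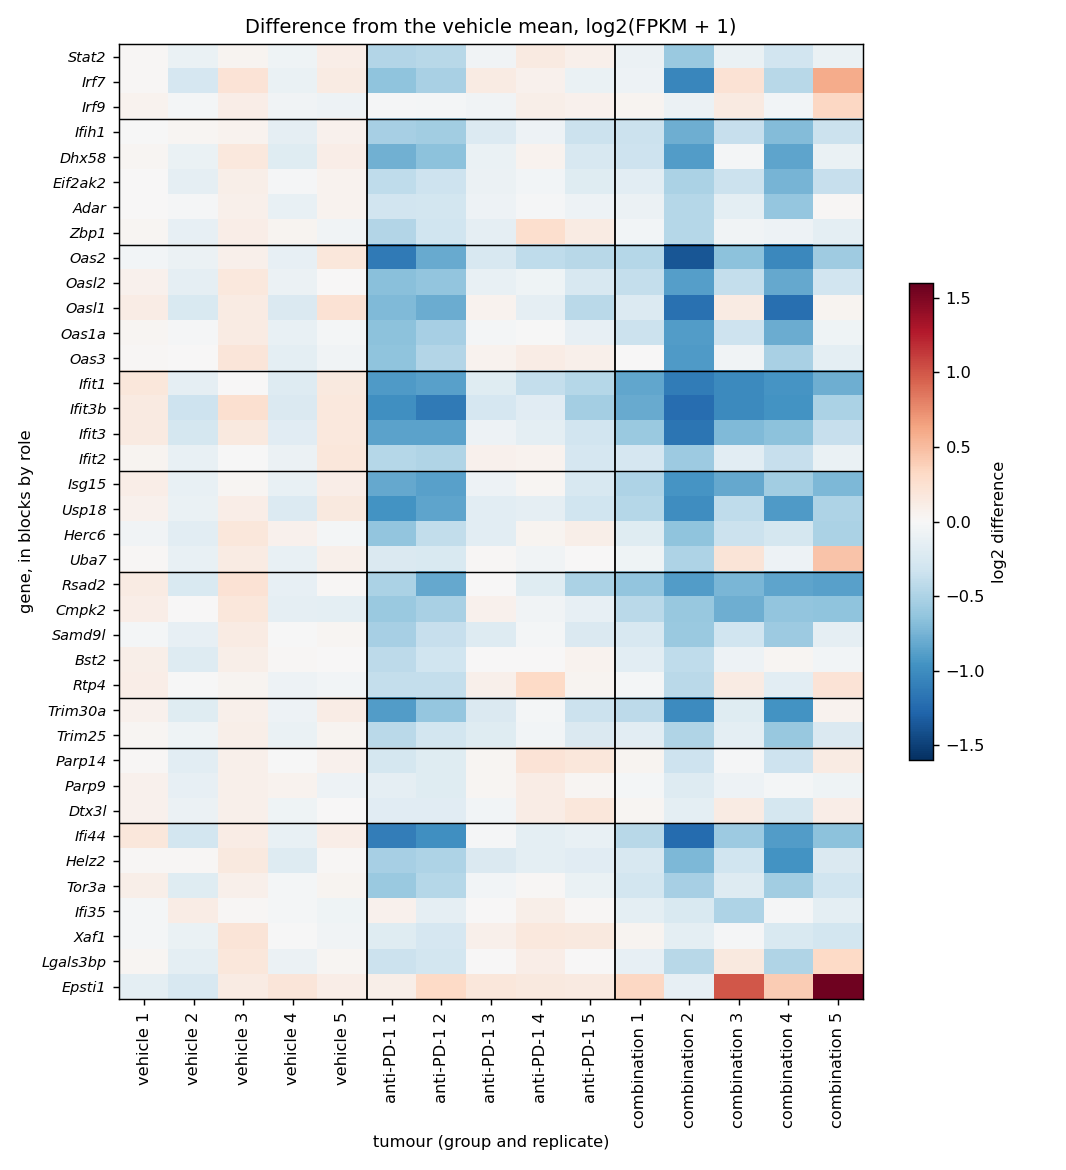
Difference of log2(FPKM + 1) from the vehicle mean (colour, blue below and red above) for each of the 38 genes (rows, in blocks by role) in each of the 15 tumours (columns). The darkest blue columns are anti-PD-1 tumours 1 and 2 and combination tumours 2 and 4, and Epsti1, in the last line, is red in combination tumours 3 and 5.

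The 2 low anti-PD-1 tumours differed from the other 3 of their group in other markers too. Their neutrophil markers summed to 28.9 and 23.9 FPKM, against 4.42, 8.48 and 9.12 in tumours 3, 4 and 5 and 4.57 to 11.3 with vehicle. Their epithelial markers summed to 19.9 and 17.5 FPKM, against 1.15 to 2.72. Adipocyte (156 and 265, against 45.3 to 102) and fibroblast sums (1204 and 1091, against 731 to 965) were higher too. So were endothelial sums (41.8 and 37.5, against 27.6 to 35.2). Sums of the plasmacytoid dendritic cell list were lower (41.7 and 59.2, against 65.6 to 79.7). Those of T cells, 41.1 and 41.8, lay inside the range of the other 3, 31.1 to 46.1. In the combination the neutrophil sums were 17.1, 14.8, 33.5, 30.8 and 45.9 FPKM, and tumour 2, the lowest for the 38 genes, had the lowest neutrophil, T cell (42.9) and macrophage (1466) sums of its group. Combination tumour 4, the second lowest for the 38 genes, had a T cell sum of 58.9 and a macrophage sum of 2077 FPKM. Those of combination tumour 1 were 58.7 and 1953 FPKM. The marker that sets plasmacytoid dendritic cells apart, Siglech, was between 0.0634 and 0.562 FPKM in every tumour. The part of any of these cells in the values of the 38 genes was not tested.

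The ligands and receptors of the pathway were then read from a list of related genes. None of the 18 type I interferon genes listed reached the filter on low values. Ifnb1, interferon beta, was at most 0.649 FPKM in any tumour, and 15, 14 and 16 of the 18 genes were listed at 0 in all 5 tumours of the vehicle, anti-PD-1 and combination groups. Of 4 genes for the receptor and its kinases, 2 rose with the combination (50%, against 16.6% of all tested genes) and 0 fell. Ifnar2 averaged 12.6 ± 1.03 FPKM (SD, n = 5) with vehicle and 17.4 ± 5.05 with the combination (log2 change 0.39, limma adjusted p = 0.0338). Tyk2 also rose (0.44, adjusted p = 0.0363). Ifnar1, at 15.4 ± 0.388 and 14.8 ± 2.27 FPKM, and Jak1 did not pass. The mean log2 difference of the 4 genes from the vehicle mean was 0.08, -0.11, 0.40, 0.02 and 0.59 in combination tumours 1 to 5, highest in tumours 3 and 5, which also had the highest macrophage and T cell sums.

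A list of 15 genes covered nucleic acid sensing upstream of interferon production, with Trex1 and Samhd1, which neither sense nor relay the signal, among them. With the combination, 4 fell (26.7%, against 23.9% of all tested genes) and 6, Samhd1 among them, rose (40%, against 16.6%). The mean log2 difference of the 15 genes was 0.17, -0.16, 0.41, -0.08 and 0.49 in combination tumours 1 to 5, again highest in tumours 3 and 5. The part of macrophages and T cells in either list was not tested. Ddx58, the RNA sensor RIG-I, which is itself induced by interferon, measured 55.8, 52.3, 59.1, 50.9 and 55.0 FPKM with vehicle, 35.8, 37.5, 44.4, 46.1 and 38.8 with anti-PD-1, and 37.5, 32.1, 31.5, 28.3 and 30.9 with the combination. Both treated groups lay wholly below the vehicle tumours, and the 2 treated groups overlapped. Its log2 change was -0.75 ± 0.08 (SE, limma adjusted p = 3.64e-05) with the combination and -0.43 ± 0.08 (adjusted p = 0.00901) with anti-PD-1. The double-stranded RNA receptor Tlr3 (-0.31, adjusted p = 0.00161), its adaptor Ticam1 (-0.30, 0.00244) and the DNA sensor cGAS, listed as Mb21d1 (-0.23, 0.0262), also fell. Tmem173, the adaptor STING, rose (0.57, 0.0103), as did the endosomal RNA receptor Tlr7 (0.75, 0.0113) and the nucleotide hydrolase Samhd1 (0.58, 0.00553), with Ikbke, Irf5 and Tbk1. Of 6 genes listed as negative regulators, Socs1, Socs3 and Ptpn6 rose with the combination (50%, against 16.6% of all tested genes) and 0 fell.

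Interferon gamma and its known targets were read as a list to set beside the 38 genes. Of these 22 genes, 13 rose with the combination (59.1%, against 16.6% of all tested genes) and 0 fell (background 23.9%). The median log2 change was 0.41, against -0.05 over all tested genes. With anti-PD-1, 3 rose (13.6%, against 2.21%) and 0 fell (background 3.34%), at a median of 0.33, against 0.01. Against anti-PD-1 alone 0 of the 22 passed by limma, and the median was 0.08, against -0.05 over all genes. An unadjusted p under 0.05 was found in 3 of the 22, and in 3187 of all 11311 tested genes. Ifng itself measured 2.64, 2.48, 2.41, 2.67 and 2.44 FPKM with vehicle, 5.28, 5.40, 4.72, 10.2 and 12.7 with anti-PD-1, and 10.3, 5.20, 17.5, 11.7 and 14.99 with the combination. No treated tumour reached down to the vehicle range. The log2 change of Ifng was 1.78 ± 0.28 (SE, adjusted p = 3.7e-04) with the combination and 1.20 ± 0.28 (adjusted p = 0.0224) with anti-PD-1. Cd274, the PD-1 ligand, rose from 26.0 ± 4.38 to 58.9 ± 14.3 FPKM with the combination (log2 change 1.13, adjusted p = 7.38e-04), and Irf1 from 77.9 ± 4.10 to 98.6 ± 14.1 (0.33, adjusted p = 0.0212). Cxcl10, which answers to both kinds of interferon, did not pass, at 514 ± 58.2 and 418 ± 55.8 FPKM. The difference between the 2 lists was not tested.

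By tumour, the mean log2 difference of the 22 interferon gamma genes was 0.13, 0.22, 0.19, 0.62 and 0.68 with anti-PD-1 and 0.51, 0.15, 0.69, 0.71 and 0.52 with the combination, against -0.18 to 0.15 with vehicle. Combination tumour 2 was the lowest of its group for both lists. Combination tumour 4 was the highest of its group for the interferon gamma genes and the second lowest for the 38 genes.

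**Figure D4:**
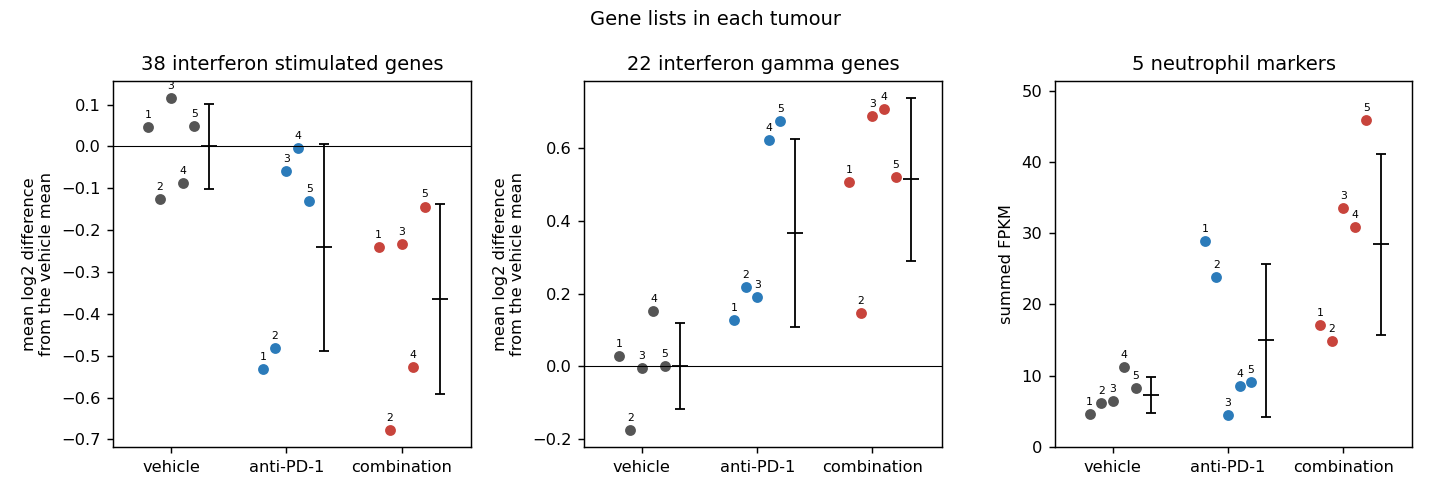
Mean log2 difference from the vehicle mean over the 38 interferon stimulated genes (left) and over 22 interferon gamma genes (middle), and summed FPKM of 5 neutrophil markers (right), for each tumour; points carry replicate numbers and bars are mean ± SD (n = 5). The 5 combination tumours lie at -0.14 to -0.68 in the left panel, and anti-PD-1 tumours 1 and 2, at -0.53 and -0.48, are the highest of their group in the right panel.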

How the data were processed

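Gene expression was measured in 15 MC38 tumours, 5 per group, and groups and replicate numbers were taken from the sample titles. Per the submitters' processing notes, Trimmomatic, HISAT2, Cufflinks, HTSeq and DESeq were used with the genome build GRCm39, without stated roles or versions. The deposited table holds 1 value per gene and library under a header that names no unit. These values were read as FPKM computed by the authors, which was inferred from the values and from Cufflinks in those notes. The table was given as text for this work. Of 21878 entries, 27 whose symbols had become dates were left out, and these held no more than 0.168% of any library's total. Library names carry prefixes whose meaning the sources used here do not give, and they were not used as batches.

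A gene was tested where 5 or more libraries reached 1 FPKM. The test was that of limma 3.58.1 (R 4.3.3) on log2(FPKM + 1), fitted as 3 group means over all 15 libraries with eBayes and a trend, two-sided, adjusted by Benjamini-Hochberg within each comparison. A log2 change on this scale understates the change of low genes. The script was tested on simulated data first. Log2 changes are printed for members past the threshold, the 6 with the smallest p, and the largest rise and fall in each comparison. Lists are described by counts and medians, with no test. The members and all lists were chosen with earlier results of these data known. The symbol Rigi was matched to Ddx58 by hand. Promoter windows are RefSeq's on GRCm38.p6, an earlier build than that of the notes, and no coordinate was converted. Stretches of 50 bases shared between genes were counted in GENCODE transcripts. Alternatives were other scalings, pseudocounts, filters, fits and tests, and leaving out each tumour. From the related lists, 1 gene was left out and is not reported here.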

Additional observations from a re-analysis of the deposited data

Results flagged for a closer look

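In 258 groups of 5 tumours, taken over the 38 genes and the related genes of the pathway, the highest or lowest tumour was checked against the other 4, and 7 stood apart by Dixon's ratio (2.71%). Chance alone gives about 1 in 20. Vehicle tumour 2 was the lowest of its group for Cxcl10 (412 FPKM, the others 528 to 559) and Tap1 (92.7 FPKM, the others 101 to 104). Combination tumour 2 was the lowest of its group for Parp9 (31.0 FPKM, the others 34.1 to 35.4), Zbp1 (73.6 FPKM, the others 90.8 to 98.5) and Nlrc5 (16.7 FPKM, the others 20.5 to 21.96). Combination tumour 1 was the highest for Mavs, at 14.3 FPKM against 11.7 to 12.1. Anti-PD-1 tumour 3 was the lowest for Socs3, at 20.3 FPKM against 26.7 to 29.7.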

How the results depend on the processing

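No value of the 38 genes that was called changed sign under the alternatives run, and 13 of the 20 genes called with the combination against vehicle, among them Ifit1, Rsad2, Isg15 and Oas2, were called under all 28. With the combination against vehicle, the number of genes higher was 0 with no filter on low values, with only the groups compared, by the exact permutation test, without combination tumours 3 and 5 and without anti-PD-1 tumours 1 and 2, and 2 without combination tumours 2 and 4; over all genes 2719 passed by the permutation test, with 17 of the 38 lower. Median-ratio scaling moved the share of all calls that were higher from 40.9% to 55.7%, and left 17 of the 38 lower. Leaving out 1 tumour at a time gave 3728 to 5201 genes over all, 16 to 23 of the 38 lower, 0 to 1 higher and a median of -0.42 to -0.32.

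With anti-PD-1 against vehicle, the number of the 38 genes lower was 3 with quantile normalization, 2 with pseudocount 5, 7 with only the groups compared, 11 with weights per group, 0 by the permutation test, 4 without combination tumours 3 and 5, 0 without anti-PD-1 tumours 1 and 2 and 6 without combination tumours 2 and 4. Over all genes, from 628, it was 2100 with only the groups compared, 2269 with weights, 0 by permutation, 1792, 30 and 1167 under the same 3 omissions. Quantile normalization moved the share of higher calls from 39.8% to 28.0%. Leaving out 1 tumour gave 223 to 1129 genes over all, 0 to 4 of the 38 lower, 0 higher, and a median of -0.29 to -0.16.

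With the combination against anti-PD-1, the 7 calls over all genes became 24 with the filter at 5 FPKM, and 0 with either other scaling, only the groups compared, weights, the permutation test, and without combination tumours 3 and 5 or anti-PD-1 tumours 1 and 2. Without combination tumours 2 and 4 there were 3231, with 1 of the 38 lower and 1 higher. Leaving out 1 tumour gave 0 to 2222 (the highest without combination tumour 2), 0 of the 38 lower, 0 to 1 higher, and a median of -0.20 to -0.05. The cause of these shifts was not tested.

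No label says that replicate numbers pair the tumours. Same-numbered tumours of the combination and vehicle correlated in their deviations by 0.04 to 0.29, not all over 0.1. The range was -0.20 to 0.04 for anti-PD-1 and vehicle, and -0.39 to -0.12 for the combination and anti-PD-1. A fit with the replicate block called 4263 genes and 21 of the 38 lower with the combination, 347 and 1 with anti-PD-1, and 0 between the treated groups. Omissions of 2 tumours together were chosen after seeing the data. The number of tumours limits what differences could be called, and read depth is unknown.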
